A study of Arabidopsis thaliana with 8 samples.

Results

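The genes described here, 10 in all, belong to xylem vessels and fibres of Arabidopsis floral stems: 8 transcription factors that switch on secondary wall formation and 2 cysteine peptidases of xylem vessels. The 10 rows were taken by locus identifier from 32833 loci, and all 10 were among the 21202 genes tested. The regulators were NST1, NST2, SND1 and SND2, of the NAC family, VND6 and VND7, NAC factors of vessels, and the MYB factors MYB46 and MYB83. The peptidases were XCP1 and XCP2.

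Secondary walls of xylem vessels and interfascicular fibres hold cellulose, xylan and lignin, and they let a stem stand and carry water. In Arabidopsis, NST1, NST2 and SND1 act as upper switches of this programme, chiefly in fibres and, for NST1 and NST2, in the endothecium of anthers. VND6 and VND7 do so in vessels. They turn on MYB46 and MYB83, which in turn activate genes of cellulose, xylan and lignin synthesis. Vessels also make enzymes that digest the cell after the wall is complete, and XCP1 and XCP2 are papain-like peptidases of this kind, stored in the vacuole until the cell dies.

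The 8 mRNA libraries formed 4 groups of 2 biological replicates: Total and TRAP of the wild type (WT, Col-0), and Total and TRAP of msh1, all from floral stems of plants grown under 16 h days at 22 °C. TRAP, translating ribosome affinity purification, recovers mRNA with ribosomes that carry a tagged protein, here FLAG::RPL18 under the MSH1 promoter, so that a TRAP library is meant to hold mRNA from cells using that promoter. Total libraries hold RNA of the stem. MSH1 encodes a DNA mismatch repair homologue of plastids and mitochondria. No msh1 allele or plant age is in the labels. Whether the same plants gave Total and TRAP RNA, and whether the Total plants carried the construct, is not stated there either.

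Gene counts summed to 7568728 to 13611280 per library. CPM, the unit of level used here, is gene counts scaled to library size. A floor of 3 counts, given only as a guide to low levels, stood for 0.220 to 0.396 CPM before TMM scaling, which the levels carry. The MSH1 transcript lay at 9.26 to 13.97 CPM in WT-labelled and 22.5 to 36.3 CPM in msh1-labelled libraries, so its level does not check the genotype. Defining genes of secondary walls, here CESA4, CESA7, CESA8, IRX9, LAC4 and LAC17 (6 markers), were present in every library, and none was at 0. Together they held 1183 and 1230 CPM (WT Total), then 1452 and 1767 (WT TRAP), 689 and 869 (msh1 Total) and finally 627 and 570 CPM (msh1 TRAP). Seed storage and oil genes (6 markers) held 638 to 1756 CPM in WT and 24.5 to 196 CPM in msh1 libraries. Epidermis genes (5 markers) held 376 and 471 CPM in msh1 TRAP and 899 to 1323 CPM elsewhere. No marker of phloem, cambium, epidermis, seed or green tissue was at 0 in any library. In tissue of this kind, fewer cells of a type and less RNA per cell cannot be told apart.

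The members spanned a wide range of levels, from 10 counts (VND7 in WT TRAP 1) to 869 counts (XCP2 in msh1 Total 2). Per kb of exon, in WT Total, XCP2 was most abundant at 44.8 ± 3.76 CPM per kb (SD, n = 2), followed by XCP1 at 19.3 ± 1.79, SND1 at 13.3 ± 0.944 and NST1 at 8.87 ± 0.618 CPM per kb. MYB46 (6.92), SND2 (5.57), NST2 (3.399), VND6 (2.00), MYB83 (1.40) and VND7 (0.933 CPM per kb) came after them. In WT Total no 2 neighbours in this order had overlapping libraries. In msh1 Total the order was the same, and the libraries of MYB83 and VND7, the lowest members, overlapped. In WT TRAP, SND1 (21.4 ± 1.77 CPM per kb) and XCP2 (21.2 ± 5.19) had overlapping libraries at the top, as did XCP1 (12.2 ± 4.36) and NST1 (11.04 ± 1.14). In msh1 TRAP, XCP2 stood at 24.4 ± 4.42 CPM per kb, above SND1 (14.3 ± 1.91), NST1 (12.5 ± 2.18) and XCP1 (10.9 ± 1.72), and the libraries overlapped between SND1 and NST1 and between NST1 and XCP1.

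**Figure D1:**
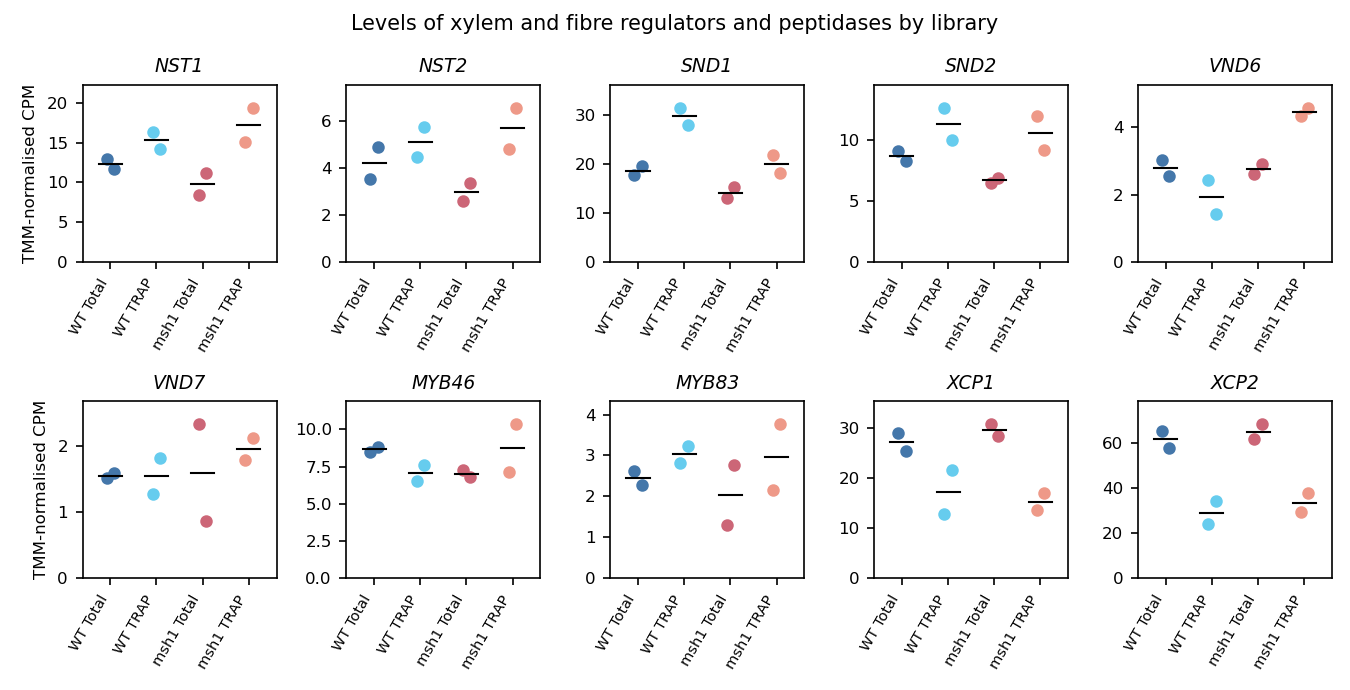
TMM-normalised CPM of each of the 10 genes on a linear axis from 0, in the 4 groups. Points are libraries and bars are means of 2. XCP1 and XCP2 lie lower in every TRAP library than in every Total library, whereas NST1 and SND2 lie higher in every TRAP library.

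The 2 peptidase genes, which had the highest levels in Total, are described first. XCP1 (AT4G35350) lies on chromosome 4 (16810482 to 16812077, plus strand, TAIR10.1 annotation) and XCP2 (AT1G20850) on chromosome 1 (7252111 to 7253747, plus strand). Their coding sequences were 73.0% identical over 1061 aligned bases, and the longest stretch shared without a mismatch was 23 nt. The 250 bases upstream of each annotated transcript start are shown because the levels of the pair ran alike over the 8 libraries, and because XCP1 held a match to the tracheary element regulating cis-element (TERE), a promoter element of vessel genes. Both sequences are given 5′ to 3′ on the gene's strand, from the RefSeq TAIR10.1 genome, chr4:16810232-16810481 for XCP1 and chr1:7251861-7252110 for XCP2. Capitals mark the TERE match in XCP1 and, in XCP2, 2 overlapping matches to SNBE, the degenerate element bound by secondary wall NAC factors.
XCP1: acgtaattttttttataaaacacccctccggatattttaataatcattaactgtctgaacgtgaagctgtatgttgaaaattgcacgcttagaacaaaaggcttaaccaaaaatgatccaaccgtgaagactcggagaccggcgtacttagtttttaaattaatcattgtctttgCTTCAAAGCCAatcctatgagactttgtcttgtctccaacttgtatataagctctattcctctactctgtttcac
XCP2: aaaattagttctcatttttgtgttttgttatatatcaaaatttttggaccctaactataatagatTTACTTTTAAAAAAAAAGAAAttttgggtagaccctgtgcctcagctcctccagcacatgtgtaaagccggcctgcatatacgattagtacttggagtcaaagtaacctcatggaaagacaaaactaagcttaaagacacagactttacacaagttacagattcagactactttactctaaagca

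TERE was searched on both strands as the letters CTT, any base, AAAGC, any base, A. It was found in XCP1 alone of the 10 members, from 75 to 65 bases upstream of the start, and in 0.37% of 27443 promoters of the same length. The SNBE matches, also sought on both strands, were less selective, at 7 of 10 members and 42.59% of all promoters, and 1 of those in XCP1 covers its TERE match. The secondary wall MYB-responsive element (SMRE), spelled as the letters ACC, then A or T, then A, then A or C, then C or T, matched VND7 and MYB83 and 29.36% of all promoters. A match describes letters in this window only.

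XCP2 gave 65.4 and 58.1 CPM (WT Total), then 24.1 and 34.2 (WT TRAP), 61.8 and 68.5 (msh1 Total) and finally 29.3 and 37.9 CPM (msh1 TRAP). Every TRAP library lay below every Total library. A gene was called where its edgeR p, adjusted over all genes tested, was below 0.05. In WT, TRAP was 2.11-fold lower than Total (log2 fold change −1.08 ± 0.19 (SE), edgeR quasi-likelihood adjusted p = 0.00698). In msh1 it was 1.94-fold lower (−0.96 ± 0.19, edgeR adjusted p = 0.00365). For WT the call was lost when either WT Total 1 (edgeR adjusted p = 0.0929, at −0.99) or WT TRAP 1 (0.0525, at −0.85) was left out, and the msh1 call held under all 16 other settings.

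XCP1 gave 29.1 and 25.5 CPM (WT Total), then 12.9 and 21.7 (WT TRAP), 30.9 and 28.5 (msh1 Total) and finally 13.6 and 17.1 CPM (msh1 TRAP). The TRAP libraries again lay below all Total libraries, with WT TRAP 2 the closest to them. In msh1 XCP1 was 1.93-fold lower in TRAP (−0.95 ± 0.22, edgeR adjusted p = 0.00899), and the call was lost when msh1 Total 1 was left out (0.0553, at −0.89). In WT its log2 fold change of −0.65 ± 0.22 did not pass (edgeR adjusted p = 0.114), and it passed when no filter on low counts was used (0.0159). The difference between the genotypes in this contrast, −0.30 ± 0.31 for XCP1 and 0.12 ± 0.26 for XCP2, did not pass (edgeR adjusted p = 0.547 and 0.797). Between genotypes neither peptidase differed detectably. In Total, msh1 minus WT was 0.12 ± 0.21 for XCP1 (edgeR adjusted p = 0.851) and 0.08 ± 0.18 for XCP2 (0.892). In TRAP it was −0.18 ± 0.23 (0.552) and 0.20 ± 0.19 (0.437).

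Having all 4 TRAP libraries below all 4 Total libraries was thus shared by both peptidases and by 0 of the 8 regulators, and 6.41% of all genes tested had this order. The opposite order, every TRAP library above every Total library, was held by NST1 and SND2, 2 of the 8 regulators, and by 3.94% of all genes tested. Where the text below says that the 2 libraries of a group lay apart from those of another, no share of all genes was counted. Such statements describe these libraries only. The ratio of XCP2 to XCP1 stayed between 1.58 (WT TRAP 2) and 2.40 (msh1 Total 2) on the CPM scale. Across the 8 libraries the log2 levels of XCP1 and XCP2 had Pearson's r = 0.95, a description over libraries that share their groups and their depth.

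Among the fibre switches, NST1 (AT2G46770, chromosome 2, 19220725 to 19222916, minus strand) gave 12.9 and 11.7 CPM (WT Total), then 16.4 and 14.2 (WT TRAP), 8.39 and 11.2 (msh1 Total) and finally 15.1 and 19.4 CPM (msh1 TRAP). It was higher in each TRAP library than in all Total libraries. NST1 rose in msh1 TRAP over msh1 Total by 0.82 ± 0.21 on the log2 scale, or 1.76-fold (edgeR adjusted p = 0.0142). That call ended without msh1 Total 1 (0.126, at 0.63) or msh1 TRAP 2 (0.0936, at 0.61). In WT the value was 0.31 ± 0.21 (edgeR adjusted p = 0.434).

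NST2 (AT3G61910, chromosome 3, 22929006 to 22930456, minus strand), the closest relative of NST1 here with 79.1% identical coding bases, was less abundant. It gave 3.53 and 4.90 CPM (WT Total), then 4.49 and 5.77 (WT TRAP), 2.61 and 3.39 (msh1 Total) and finally 4.84 and 6.59 CPM (msh1 TRAP). The msh1 TRAP libraries lay above the msh1 Total libraries, and the WT groups overlapped. In msh1 it rose in TRAP by 0.92 ± 0.31 (edgeR adjusted p = 0.0468), a call that ended under 11 of 16 other settings, among them DESeq2 (0.0734, at 0.96) and removal of a trend on transcript length (0.137, at 0.68). Leaving out WT Total 1 (0.0624), WT Total 2 (0.0646), WT TRAP 1 (0.0533), msh1 Total 1 (0.229), msh1 Total 2 (0.106) or msh1 TRAP 2 (0.249) also ended it. In WT the value was 0.28 ± 0.30 (0.659).

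SND1 (AT1G32770, chromosome 1, 11865229 to 11867154, minus strand) had the highest mean of the regulators in every group, though it overlapped NST1 in msh1 TRAP. It gave 17.7 and 19.5 CPM (WT Total), then 31.5 and 28.0 (WT TRAP), 13.0 and 15.4 (msh1 Total) and finally 21.9 and 18.1 CPM (msh1 TRAP). Within each genotype the TRAP libraries lay above the Total libraries, and WT TRAP held the highest levels. SND1 rose in WT TRAP over WT Total by 0.67 ± 0.17, or 1.60-fold (edgeR adjusted p = 0.0409). This call ended without WT Total 1 (0.336), WT Total 2 (0.205), WT TRAP 1 (0.168), WT TRAP 2 (0.0810), msh1 Total 1 (0.0669) or msh1 Total 2 (0.0666), at log2 values between 0.59 and 0.82. In msh1 the value was 0.49 ± 0.18 (0.0582). SND1 also fell in msh1 TRAP relative to WT TRAP, by 0.57 ± 0.17 on the log2 scale, or 1.49-fold (edgeR adjusted p = 0.0186), a call lost without WT TRAP 1 (0.0923, at −0.49) or msh1 TRAP 2 (0.0664, at −0.49) and in a fit of the 4 TRAP libraries alone (0.0558, at −0.58). In Total the difference was −0.39 ± 0.17 (0.276), and the genotype effects in TRAP and Total differed by −0.18 ± 0.25 (0.659).

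SND2 (AT4G28500, chromosome 4, 14082660 to 14084553, plus strand), a NAC factor that acts below SND1, gave 9.09 and 8.28 CPM (WT Total), then 12.7 and 10.02 (WT TRAP), 6.53 and 6.93 (msh1 Total) and finally 11.96 and 9.18 CPM (msh1 TRAP). Its TRAP levels were above all its Total levels, by a narrow margin between msh1 TRAP 2 and WT Total 1. TRAP over Total was 0.65 ± 0.22 in msh1 (edgeR adjusted p = 0.0504) and 0.38 ± 0.21 in WT (0.353), and neither passed. The msh1 value passed with the size factors of DESeq2 (0.0407), without a filter on low counts (0.0472), without WT TRAP 2 (0.0365) and without msh1 TRAP 2 (0.0382).

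The vessel switches were scarce. VND6 (AT5G62380, chromosome 5, 25050152 to 25052054, plus strand) gave 3.03 and 2.55 CPM (WT Total), then 2.44 and 1.42 (WT TRAP), 2.61 and 2.92 (msh1 Total) and finally 4.33 and 4.59 CPM (msh1 TRAP), the last from 34 and 39 counts. The msh1 TRAP libraries were the highest and the WT TRAP libraries the lowest, with no overlap with either Total group. VND6 rose in msh1 TRAP over WT TRAP by 1.23 ± 0.36, or 2.35-fold (edgeR adjusted p = 0.0156). The call ended without WT TRAP 2 (0.125, at 0.89) or msh1 TRAP 2 (0.0644, at 1.14) and with a trend on transcript length removed (0.0592, at 0.96). In Total the genotypes differed by −0.01 ± 0.33 (0.995), and the difference of the 2 genotype effects, 1.24 ± 0.49, did not pass (0.105). TRAP over Total was −0.56 ± 0.36 in WT (0.430) and 0.69 ± 0.33 in msh1 (0.142). The exons of VND6 overlap those of BAG7, on the other strand, over 77 nt, 5.5% of its length, and BAG7 held 4487 counts in all against 244 for VND6, so part of the VND6 reads is uncertain.

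VND7 (AT1G71930, chromosome 1, 27074702 to 27077991, plus strand) had 10 to 25 counts per library, or 0.867 to 2.33 CPM, with the extremes in the 2 msh1 Total libraries. No contrast passed, and the log2 fold change from Total to TRAP was 0.02 ± 0.50 for WT and 0.32 ± 0.50 for msh1. VND7 had 137 counts over 8 libraries, and small changes were not detectable at this depth.

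Of the MYB factors, MYB46 (AT5G12870, chromosome 5, 4062666 to 4065075, minus strand) gave 8.50 and 8.84 CPM (WT Total), then 6.54 and 7.59 (WT TRAP), 7.27 and 6.78 (msh1 Total) and finally 7.13 and 10.4 CPM (msh1 TRAP). WT Total lay above WT TRAP without overlap, and the msh1 groups overlapped. MYB83 (AT3G08500, chromosome 3, 2576444 to 2578276, minus strand), which acts redundantly with MYB46, stood between 1.31 and 3.77 CPM, both extremes being msh1 libraries. No contrast of either MYB gene passed. TRAP over Total was −0.29 ± 0.23 (edgeR adjusted p = 0.532) in WT and 0.32 ± 0.24 (0.341) in msh1 for MYB46. For MYB83 it was 0.32 ± 0.41 (0.717) and 0.53 ± 0.42 (0.385).

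**Figure D2:**
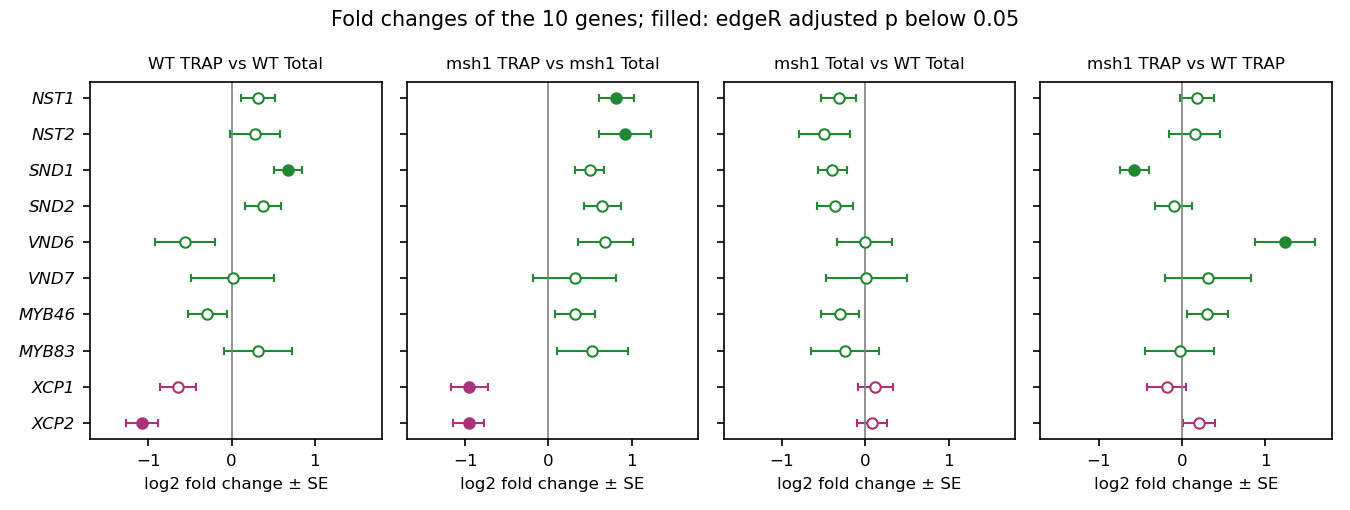
Log2 fold changes with SE of the 10 genes in 4 comparisons, regulators in green and peptidases in purple, filled where the edgeR adjusted p was below 0.05. In msh1 the 8 regulators lie between 0.32 and 0.92 for TRAP over Total while both peptidases lie near −0.95.

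In WT TRAP against WT Total, 1 of 8 regulators rose and 0 fell, and of the peptidases 1 fell, where 5.07% of all genes tested were called, 3.41% higher and 1.67% lower. The median log2 fold change was 0.30 over the 8 regulators, −0.86 over the 2 peptidases and −0.06 over all genes. In msh1 TRAP against msh1 Total, 2 regulators rose and 0 fell and both peptidases fell, where 26.2% of all genes were called, 14.1% higher and 12.1% lower. The medians were 0.59, −0.95 and −0.03. All 8 regulators had positive values in msh1, and 6 of 8 in WT. In the same msh1 contrast 5 of 5 epidermis markers (median −1.34) and 5 of 6 seed markers (median −2.28) fell. Of 7 phloem markers 3 fell and 0 rose (median 0.13), and of 5 cambium markers 2 rose and 0 fell (median 0.02). Of 4 green tissue markers 0 were called (median 0.30). In WT 1 marker each of epidermis, seed and phloem fell, with medians of −0.31, −0.80 and −0.11. Of cambium and green tissue markers 0 were called in WT, with medians of −0.11 and 0.30. Of the 6 secondary wall markers 1 fell and 0 rose in msh1 (median −0.33), and 0 were called in WT (median 0.30). The part of all these markers in the values of the members was not tested.

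Summed per kb of exon, XCP1 and XCP2 reached 68.1 and 60.2 CPM per kb (WT Total), then 26.6 and 40.2 (WT TRAP), 66.7 and 69.9 (msh1 Total) and finally 30.9 and 39.6 CPM per kb (msh1 TRAP). The 8 regulators together reached 42.0 and 42.8 (WT Total), then 55.6 and 51.4 (WT TRAP), 31.5 and 35.9 (msh1 Total) and finally 49.3 and 53.2 CPM per kb (msh1 TRAP). Peptidases exceeded regulators in all 4 Total libraries and fell short of them in all 4 TRAP libraries. Their ratio was 1.51 ± 0.152 in WT Total and 0.630 ± 0.213 in WT TRAP, 2.03 ± 0.121 in msh1 Total and 0.685 ± 0.0831 in msh1 TRAP (SD, n = 2 each), 2.40 times as high in Total as in TRAP for WT and 2.97 times for msh1. By group mean, SND1 made up the largest share of the regulators and XCP2 of the peptidases. With SND1 left out the Total ratio was 2.11 times the TRAP ratio in WT and 3.06 times in msh1, and with XCP2 left out 1.97 and 2.98 times. Without SND1, WT TRAP 2 had a ratio of 1.28, above 1, while the other TRAP libraries stayed at 0.809 to 0.984. Without XCP2 the ratio was below 1 in every library, at 0.422 to 0.694 in Total, so XCP1 alone did not exceed the regulators. No test was made of these sums.

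**Figure D3:**
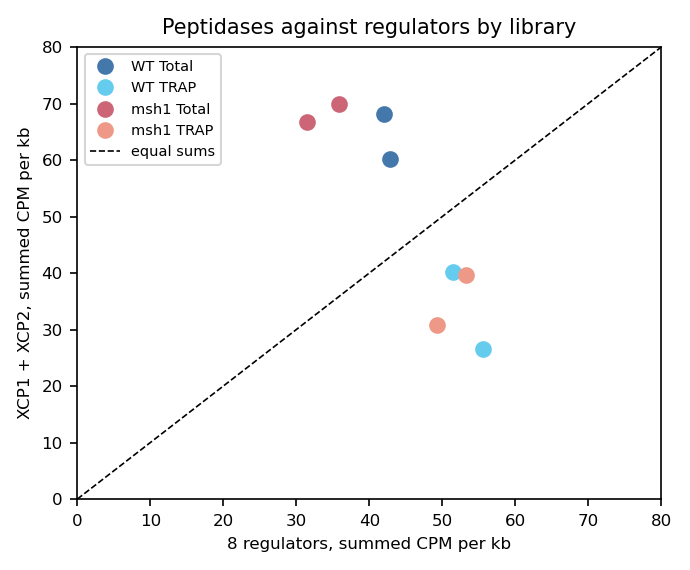
Summed level of XCP1 and XCP2 against that of the 8 regulators, in CPM per kb of exon, 1 point per library, with a dashed line of equal sums. The 4 Total libraries lie above the line and the 4 TRAP libraries below it.

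The log2 levels of SND2 ran opposite to those of both peptidases over the 8 libraries, with Pearson's r = −0.88 for XCP1 and −0.89 for XCP2. For SND1 r was −0.72 and −0.83, and for NST1 −0.79 and −0.72. MYB46 had r = 0.12 and 0.20. Within the regulators, SND1 and SND2 (r = 0.87), NST1 and NST2 (0.84) and NST1 and MYB83 (0.82) ran most alike, and VND6 and VND7 had r = 0.10. Among 15946 tested genes with a mean of at least 5 CPM, the patterns most like that of XCP1 were those of DER1, annotated as DERLIN-1 (r = 0.989), BIP2, an Hsp70 family protein (0.983), and CRT1a, calreticulin 1a (0.977). DER1 measured 21.8 and 20.1 CPM in WT Total against 9.87 and 14.6 in WT TRAP, and 24.0 and 22.1 CPM in msh1 Total against 10.4 and 12.1 in msh1 TRAP. Those most like XCP2 were CYP98A9, a cytochrome P450 gene (0.987), AT2G42230, a C-CAP/cofactor C-like domain gene (0.980), and FLR1, a leucine-rich repeat gene (0.979). Those most like SND1 were AT2G33320, a calcium-dependent lipid-binding domain gene (0.991), and CRF11 (0.987) and AT1G22190 (0.983). Both of the latter carry the annotation "Integrase-type DNA-binding superfamily protein". All these r values are over 8 libraries in 4 groups and describe these libraries only.

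The rest of the secondary wall programme was described with a list of 52 genes, of which 50 were tested (MYB42 and LBD18 had too few counts). It held 8 further NAC factors, 20 other factors, 19 genes of wall structure and 5 of xylem cell death. In WT TRAP against WT Total, 0 were higher and 3 lower, where 3.41% of all genes tested were higher and 1.67% lower, and the list median was 0.03 against −0.06 over all genes. The 3 were BFN1, a nuclease of senescing and dying cells (−1.14 ± 0.23, edgeR adjusted p = 0.0166), RNS3, a ribonuclease linked to xylem differentiation (−0.95 ± 0.18, 0.0108), and TED6, a membrane protein of differentiating vessels (−0.76 ± 0.20, 0.0470). RNS3 measured 18.4 and 18.3 CPM in WT Total and 8.84 and 10.02 CPM in WT TRAP, which did not overlap. All 3 calls ended without WT Total 1 (0.222 for BFN1, 0.124 for RNS3, 0.288 for TED6), WT Total 2 (0.0570, 0.119 and 0.221) or WT TRAP 2 (0.171, 0.0686 and 0.200). Without WT TRAP 1 the calls of RNS3 (0.0624) and TED6 (0.190) ended, and that of TED6 also without msh1 Total 1 (0.0782) or msh1 Total 2 (0.0793), by DESeq2 (0.0602) and with the length trend removed (0.104). All 5 cell death genes had values below 0 in WT, from −1.14 to −0.31, with XSP1, a subtilase of xylem, at −0.31 and MC9, a metacaspase of vessels, at −0.39, neither called.

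Of the 50 tested, between msh1 TRAP and msh1 Total, 6 were higher and 4 lower, against 14.1% and 12.1% of all genes, with a list median of 0.05. WRKY12, a repressor of wall thickening in pith, rose by 1.34 ± 0.17 (edgeR adjusted p = 0.000409), from 14.2 and 11.1 CPM to 33.1 and 30.8 CPM. MYB52 (1.39 ± 0.29, 0.00496), MYB61 (0.96 ± 0.18, 0.00268) and VNI2, a NAC repressor that binds VND7 (0.92 ± 0.16, 0.00184), also rose, and these 4 passed under all 16 other settings. MYB20, a factor of lignin genes, rose by 0.99 ± 0.23 (0.00810), a call lost without msh1 Total 2 (0.102). The laccase gene LAC11 (−0.85 ± 0.21, 0.0104), the xylan gene IRX8 (−0.62 ± 0.16, 0.0149), XSP1 (−0.55 ± 0.18, 0.0383) and the cellulose synthase gene CESA7 (−0.48 ± 0.17, 0.0479) fell. Without msh1 Total 2 the calls of LAC11 (0.0902), IRX8 (0.191), XSP1 (0.230) and CESA7 (0.328) ended, IRX8 also ended without msh1 TRAP 2 (0.0526), and the calls of XSP1 and CESA7 ended under 12 of 16 settings each. Those settings include leaving out any library but WT TRAP 1, and with the length trend removed CESA7 stood at −0.18. Without msh1 Total 2 the list count was 6 in place of 10.

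In msh1 Total against WT Total no member was called, by edgeR or by DESeq2, where 3.89% of all genes tested were, and SND1 (−0.39) was the 1 member under an unadjusted p of 0.05. Of the 8 regulators 7 had values below 0 and their median was −0.31, against 0.10 for the peptidases and 0.00 over all genes. Of the wall list 0 rose and 5 fell, where 0.821% and 3.07% of all genes did, with a median of −0.48: BFN1 (−0.97 ± 0.22, edgeR adjusted p = 0.0307), RNS3 (−0.73 ± 0.17, 0.0365), the xylan gene FRA8 (−0.72 ± 0.17, 0.0368), IRX8 (−0.66 ± 0.15, 0.0337) and KNAT7, a homeodomain repressor of wall genes (−0.57 ± 0.15, 0.0496). The list count of 5 went to 0 without WT Total 1, WT Total 2 or msh1 Total 1, and to 2 when WT TRAP 1, 1 when WT TRAP 2 and 3 when msh1 Total 2 was left out. It was 13 if msh1 TRAP 1 and 14 if msh1 TRAP 2 was omitted. DESeq2 did not call RNS3 (adjusted p = 0.0859), FRA8 (0.0613) or KNAT7 (0.0600). The list count was 18 in a fit of the 4 Total libraries alone and 16 with no filter on low counts. All 6 seed markers fell in the same comparison, with a median of −3.41, and their part in these differences was not tested. Of the 6 secondary wall markers 0 were called, and all 6 had values below 0 (median −0.58).

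In msh1 TRAP against WT TRAP, 1 member rose (VND6) and 1 fell (SND1), where 41.6% of all genes tested were called, 20.8% higher and 20.8% lower. Of 19 wall structure genes, 1 was higher and 13 were lower, with a median of −0.76 against −0.02 over all genes. Their difference from the members was not tested. CESA4 stood at 561 and 694 CPM in WT TRAP and 189 and 164 CPM in msh1 TRAP, with no overlap, and fell by 1.83 ± 0.20 on the log2 scale (edgeR adjusted p = 5.48e-05). CESA7 (−1.41 ± 0.17, 7.85e-05) and CESA8 (−1.41 ± 0.18, 0.000106), the other subunits of the secondary wall cellulose synthase, fell too. IRX8 (−1.21 ± 0.16, 0.000164) and IRX14 (−1.13 ± 0.21, 0.00115), both of xylan synthesis, also fell, and these 5 passed under all 16 other settings. The smallest falls under those settings were −1.25 (CESA4), −0.90 (CESA7), −0.92 (CESA8), −1.08 (IRX8) and −0.83 (IRX14). The exons of CESA8 overlap those of MYB98, on the other strand, over 481 nt, 14.4% of their length. MYB98 held 2059 counts in all against 18769 for CESA8, so part of the CESA8 reads is uncertain. Those of the marker LAC17 overlap an antisense gene over 24.2% of their length. In the same comparison XCP1 and XCP2 stood at −0.18 and 0.20, as given above. Of the whole list 7 rose and 15 fell. The largest rises were those of VND2, a relative of VND6 and VND7 whose exons overlap an antisense gene over 8.7% of their length (1.12 ± 0.41, 0.0432), XND1, a NAC factor that limits xylem formation (1.07 ± 0.36, 0.0289), WRKY12 (1.00 ± 0.17, 0.000721), MYB20 (0.68 ± 0.23, 0.0291) and XBCP3, a papain-like peptidase (0.66 ± 0.16, 0.00635). Each of these 5 calls ended under some other setting: without msh1 TRAP 2 for VND2 (0.240), XND1 (0.138), MYB20 (0.123) and XBCP3 (0.0574), and for WRKY12 with a trend on transcript length removed (0.0666, at 0.45). Removing that trend also ended the calls of XND1 (0.0918, at 0.83) and MYB20 (0.193, at 0.40). DESeq2 did not call VND2 (0.102), XND1 (0.0577) or MYB20 (0.0549). The calls of VND2, XND1 and MYB20 ended without WT TRAP 1 (0.0643, 0.151 and 0.0811), and those of VND2 and MYB20 without WT TRAP 2 (0.203 and 0.116). That of VND2 also ended without WT Total 1 (0.0648), WT Total 2 (0.0629), msh1 Total 1 (0.0605) or msh1 Total 2 (0.0595). Beside this, 4 of 5 epidermis and 6 of 6 seed markers fell. So did 6 of the 6 secondary wall markers, which also belong to the wall list (median −1.21). Among phloem markers 2 rose and 3 fell, among cambium markers 2 rose and 0 fell. Among green tissue markers 1 rose and 2 fell. The part of all these markers in the result was not tested.

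**Figure D4:**
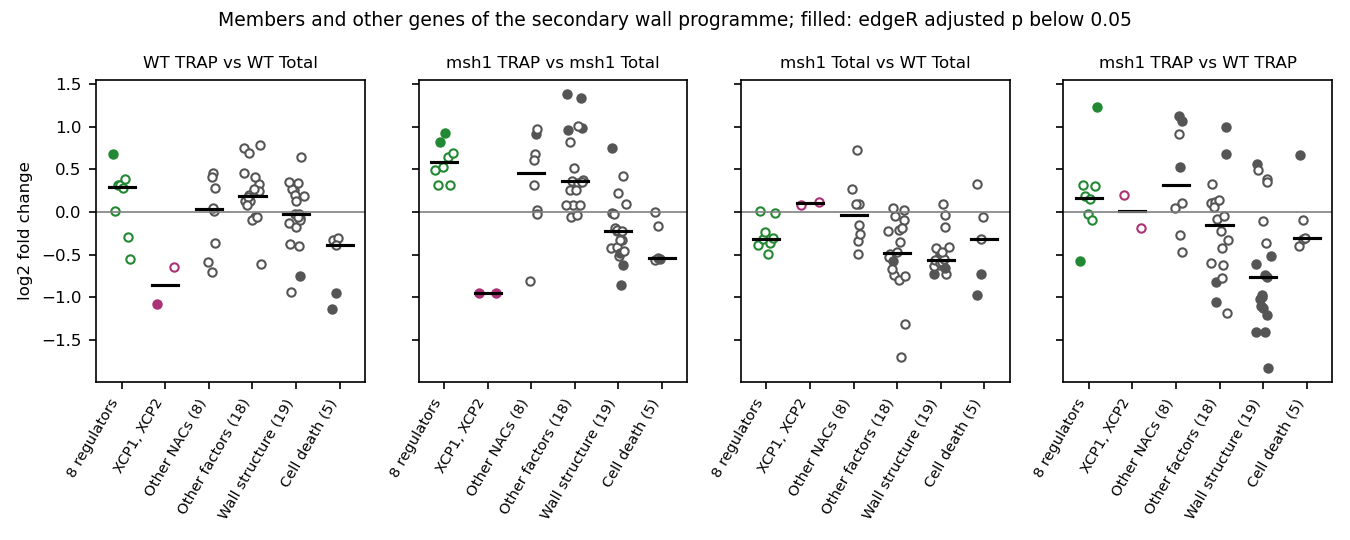
Log2 fold changes of the members and of 50 other tested genes of the secondary wall programme by class, in 4 comparisons, 1 point per gene, filled where the edgeR adjusted p was below 0.05, with class medians as bars. In msh1 TRAP against WT TRAP the wall structure genes have a median of −0.76, and XCP1 and XCP2 lie at −0.18 and 0.20.

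The interaction, which subtracts the effect of msh1 in Total from its effect in TRAP, was past the threshold for 0 of the 10 members by edgeR and for 15.6% of all genes tested. VND6 was the 1 member under an unadjusted p of 0.05 (edgeR adjusted p = 0.105), and DESeq2 called 0 members. Without msh1 TRAP 1, MYB46 passed (edgeR adjusted p = 0.0464, at 0.89). Of the wall list 4 were higher and 3 lower (9.01% and 6.61% of all genes), and these 7 are given among the results for a closer look.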

How the data were processed

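The deposited files hold raw read counts per gene, made by the authors. TAIR10 and DESeq2 are named in the submitters' processing notes, while for the aligner and the counting tool the entry is "not given in the sources used here". Per the labels' protocols, libraries were made with a TruSeq RNA v2 kit, which does not mark strand. Rows that name no gene were left out; reads with no feature were 38.5 to 41.68% and reads not unique 12.35 to 18.95%.

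Here, edgeR 4.0.16 (R 4.3.3) fitted all 8 libraries with 1 coefficient per group, after its filter on low counts and TMM scaling, by the quasi-likelihood F test. Each SE is the absolute log2 fold change divided by the square root of F, so it is not independent of the p beside it. Benjamini-Hochberg adjustment ran over all 21202 genes in each of 5 contrasts, with a threshold of 0.05. P-values measure only the spread between these samples. Levels are TMM-normalised CPM, divided by exon length where genes are compared. Alternatives were DESeq2 1.42.0, other scalings, no filter, fits of 4 libraries, a replicate block, removal of a length trend and leaving out each library. Scripts were tested on simulated data. All members are named; from the wall list, the 5 called genes with the largest change per contrast and direction; for XCP1, XCP2 and SND1, the 3 genes with the highest r. Members and lists were chosen with earlier results of these data known.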

Additional observations from a re-analysis of the deposited data

Results flagged for a closer look

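No member had a genotype effect that differed between TRAP and Total past the threshold. For 7 genes of the wall list the difference itself passed in edgeR. It was 1.13 for FLA11, a fasciclin-like arabinogalactan protein of stems (adjusted p = 0.00895), 1.09 for WRKY12 (0.0127), 0.87 for VNI2 (0.0227) and 0.83 for MYB61 (0.0419), all higher. It was −1.10 for CESA4 (0.0195), −0.82 for CESA7 (0.0327) and −0.77 for CESA8 (0.0495), all lower. With a trend on transcript length removed none of these 7 passed, the adjusted p running from 0.0657 (VNI2) to 0.343 (CESA7). All 7 calls also ended without WT Total 2 (0.0503 to 0.153), and all but that of FLA11 without WT Total 1 (0.0528 to 0.190). Other single libraries whose removal ended calls were msh1 Total 1 (FLA11, VNI2, MYB61, CESA7, CESA8), msh1 Total 2 (all but FLA11), WT TRAP 1 (VNI2, MYB61, CESA8), WT TRAP 2 (VNI2, MYB61 and the 3 CESA genes) and msh1 TRAP 2 (MYB61, CESA8). DESeq2 did not call MYB61 (adjusted p = 0.0580).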

How the results depend on the processing

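Of the 8 calls on members, 97 of 128 values under other settings kept the call, 31 lost it and 0 changed sign. Of 42 results not called, 653 values stayed so and 9 passed. Genes called in WT TRAP against WT Total numbered 2011 with no filter, 1871 in a 4-library fit and 669 with replicate block and length trend removed, against 1076. In msh1 TRAP against msh1 Total the 4-library fit gave 3548 in place of 5553. In msh1 Total against WT Total, 1770 were called with no filter and 2708 in the 4-library fit, in place of 824. For the interaction, 1708 were called with the length trend removed and 1214 with the block as well, in place of 3312. Members called in WT TRAP against WT Total were 1 under the replicate block, in place of 2. In msh1 TRAP against msh1 Total they were 2 with block and length trend removed, in place of 4. In msh1 TRAP against WT TRAP they were 1 in the 4-library fit, with the length trend removed, and with block and length trend removed, in place of 2. The cause was not tested. Leaving out 1 library gave 167 to 2310, 2218 to 7114, 219 to 1650, 5835 to 9517 and 1009 to 5575 genes in the 5 contrasts (WT fractions, msh1 fractions, Total, TRAP, interaction), and 0 to 2, 1 to 6, 0 to 0, 0 to 2 and 0 to 1 members. The wall list gave 0 to 5, 6 to 13, 0 to 14, 15 to 25 and 0 to 10. A lone sample left in a group is assumed to vary like the other groups. The ratio of peptidases to regulators, in an alternative chosen after seeing the data, was 2.20, 1.045, 2.91 and 0.951 without SND1 and 0.456, 0.2315, 0.628 and 0.211 without XCP2 (WT Total, then WT TRAP, then both msh1 groups in that order). Between groups, deviations of same-numbered libraries had r from −0.24 to 0.08. With 1 difference between replicates per group, these values cannot tell whether the replicate numbers pair the samples. The replicate block gave 742, 4871, 656, 8285 and 2600 genes. Under it the edgeR adjusted p was above 0.05 for SND1 (0.0682) and TED6 (0.0548) between WT fractions, CESA7 (0.0562) between msh1 fractions, RNS3 (0.0621), FRA8 (0.0634), IRX8 (0.0508) and KNAT7 (0.0800) in Total, VND2 (0.0575) in TRAP, and MYB61 (0.0638) and CESA8 (0.0771) in the interaction. With the length trend also removed it was above 0.05 for the members NST1 (0.0535), NST2 (0.110) and VND6 (0.0764). With 10 to 25 counts of VND7 per library, depth limits what could be seen of it.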
